A study of Ptychodera flava with 8 samples.

Results

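The accessible chromatin of the early gastrula was compared with that of the early blastula in embryos of Ptychodera flava, an acorn worm. Acorn worms are hemichordates, marine invertebrates on the deuterostome branch that also holds the vertebrates. The comparison took in every peak of the 2 lists of accessible regions that the authors deposited for these stages, 48416 for early gastrula and 46275 for early blastula. Together these are 94691 of the 202721 peaks in the 4 lists of the series. Each list stands for 2 ATAC-seq libraries, made from whole animals pooled up to 75000 cells per sample. The jelly coat was removed with N-acetylcysteine, and the animals were then kept in alkaline seawater with DTT, at both stages alike; no genotype or experimental treatment is named. Separate cultures for the libraries of a stage are not stated. The lists hold no value per library, so no difference between the stages has a replicate check, no test between stages could be made, and the sequencing depth behind the peaks is unknown. No gene levels are in the lists, so the stage labels could not be checked against marker genes. The intervals given below cover the counting error of peaks only.

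In ATAC-seq the Tn5 transposase inserts adapters into DNA that is free of nucleosomes, so a peak marks an open stretch such as an active promoter, an enhancer or an insulator. The blastula is a hollow ball of cells, and at gastrulation cells move inward and the germ layers and the gut are laid out. Regulatory regions used by the new cell populations open over this period while others close, and many promoters stay open throughout. The libraries came from whole embryos, so a smaller share of cells with an open region and weaker opening in each cell cannot be told apart.

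The first question was how many accessible regions the lists had in common. A peak was called matched where it overlapped a peak of the other list by at least 1 bp. Of the early gastrula peaks, 14542 (30.0%, Wilson 95% interval 29.6 to 30.4) had no early blastula counterpart, and of the early blastula peaks 12893 (27.9%, 27.5 to 28.3) had no early gastrula counterpart. The peaks of early gastrula alone covered 4.33 Mb, which was 26.5% of the length of that list. The peaks of early blastula alone covered 3.65 Mb, or 22.7% of their list. Peaks of early gastrula alone exceeded those of early blastula alone by 1649, while the early gastrula list was longer by 2141 peaks.

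Peaks without a counterpart were less enriched within their own list than matched peaks. The authors' fold enrichment of a peak over background was turned into a percentile within its list, from 0 for the least to 100 for the most enriched peak, since the median enrichment of the lists differed (8.15 at early gastrula and 6.996 at early blastula). Peaks of early gastrula alone had a median percentile of 36.4, with 25% of them below 17.5 and 25% above 57.9. Matched early gastrula peaks had a median of 57.4, with 25% below 30.1 and 25% above 80.2. For peaks of early blastula alone the median was 35.5, with 25% below 16.7 and 25% above 57.0, against a median of 57.0 for matched early blastula peaks. The classes overlapped broadly. Above percentile 50 of their list lay 4871 peaks of early gastrula alone (33.5%) and 4258 of early blastula alone (33.0%). Among matched peaks the share was 57.1% at early gastrula and 56.6% at early blastula.

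The share without a counterpart was lower in each successive class of 10 percentile points, in both lists. In the least enriched class it was 44.8% of early gastrula peaks and 43.5% of early blastula peaks. In the most enriched class it was 8.08% of early gastrula peaks, which is 391 of 4841, and 6.40% of early blastula peaks, which is 296 of 4628. Above percentile 99, 18 of 485 early gastrula peaks and 10 of 463 early blastula peaks stood alone. Most of the very strongest regions were thus accessible by this measure at both stages, and most peaks in each of the other classes had a counterpart as well. The early gastrula share exceeded the early blastula share in each of the 10 classes, by between 0.130 and 3.93 percentage points. These classes come from lists of unequal length. With the lists cut to equal length, the share over all peaks was 29.3% at early gastrula and 30.0% at early blastula.

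**Figure D1:**
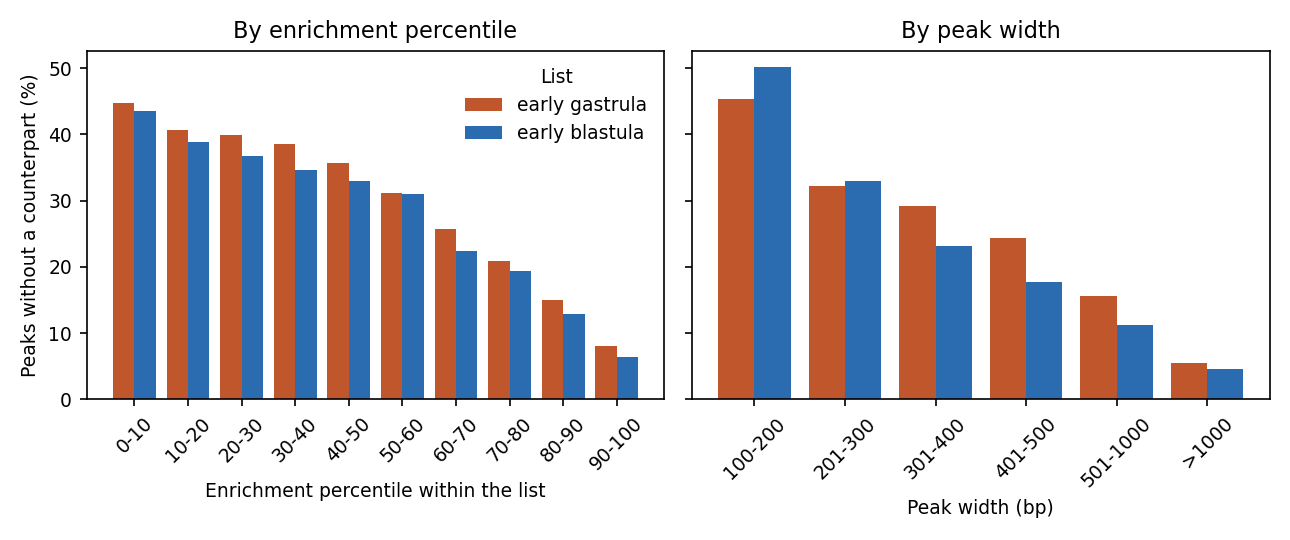
Percent of peaks without a counterpart in the other list, by class of 10 points of the enrichment percentile (left) and by peak width in bp (right); early gastrula bars stand left of early blastula bars. The share goes down from 44.8% (early gastrula) and 43.5% (early blastula) in the least enriched class to 8.08% and 6.40% in the most enriched one, and is lowest for peaks over 1000 bp.

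Width separated the classes too, and more so at early blastula. Peaks of early gastrula alone had a median width of 265 bp, against 304 bp for matched early gastrula peaks. Those of early blastula alone were 248 bp wide in the median, against 316 bp for matched early blastula peaks. Peaks narrower than 200 bp made up 18.5% of those of early gastrula alone and 9.43% of matched early gastrula peaks, and 21.4% of those of early blastula alone and 8.12% of matched early blastula peaks. The stages thus took opposite places in the 2 classes: the early gastrula peaks were the wider ones among peaks without a counterpart and the narrower ones among matched peaks. A wider peak has more bases with which to meet the overlap rule. Within peaks above 200 and up to 300 bp, the share without a counterpart was 41.1% below percentile 50 and 22.6% from there upward at early gastrula, and 39.9% and 24.9% at early blastula, so enrichment separated the classes at like width as well. The summit lay near the middle of the peak in each class, at a median of 49.2% to 49.4% of the width from the start.

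**Figure D2:**
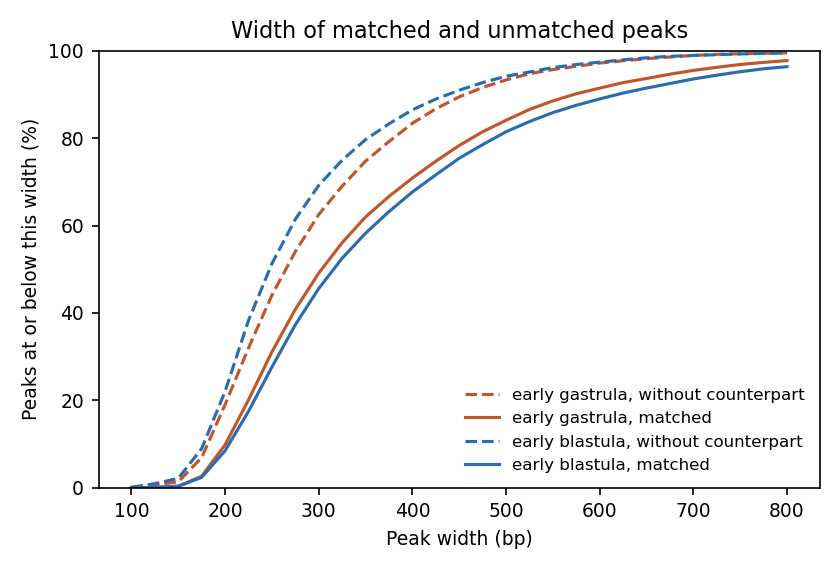
Cumulative percent of peaks at or below a width in bp, for peaks without a counterpart (dashed) and matched peaks (solid) of early gastrula and early blastula. The medians are 265 and 304 bp at early gastrula and 248 and 316 bp at early blastula, and the dashed curves lie above the solid ones between 200 and 800 bp.

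Most matches joined a single peak of each list, and a larger share of early blastula than of early gastrula peaks overlapped several peaks of the other list. There were 31384 such one-to-one pairs, which held 64.8% of the early gastrula and 67.8% of the early blastula peaks. Early gastrula peaks that overlapped 2 or more early blastula peaks numbered 542 (1.12% of the list), with a median width of 631 bp. Their counterparts had a median width of 303 bp. Early blastula peaks that overlapped 2 or more early gastrula peaks numbered 988 (2.14% of the list), with a median width of 716 bp, over counterparts of 284 bp. The early blastula list also held more wide peaks, with 15.0% over 500 bp against 13.1% at early gastrula, and its part in this was not tested. The widest divided early blastula peak, on scaffold 6 at 43467845 to 43469916, spanned 2072 bp. The early gastrula list had peaks there of 285, 652 and 997 bp, which together covered most of its length. They lay at 43467867 to 43468151, 43468205 to 43468856 and 43468943 to 43469939, with short gaps between them. A second on scaffold 6, at 37710837 to 37712748 (1912 bp), had early gastrula counterparts of 452, 267 and 586 bp. The widest early gastrula peak over several early blastula peaks lay on scaffold 3 at 13397512 to 13398897 (1386 bp), where the early blastula list had peaks of 1047 and 307 bp.

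Peaks over 1000 bp numbered 198 at early gastrula and 393 at early blastula, and nearly all of them were matched, 187 and 375. In 46 of those early gastrula peaks and 151 of those early blastula peaks the other list had at least 2 separate peaks. Where a broad early blastula peak had a single partner, in 220 pairs, the early gastrula peak had a median width of 864 bp and the early blastula peak of 1104 bp, and the early gastrula peak was the narrower in 191 pairs. Pairs chosen for a broad early gastrula peak numbered 140, with median widths of 1093 bp at early gastrula and 1052 bp at early blastula, and the early gastrula peak was the wider in 81. Pairs picked for a high value at one stage tend to show a lower value at the other, so these counts are descriptions. Grouped by the mean width of both peaks, which favours neither stage, 66.7% of the 117 pairs over 1000 bp and 52.6% of the 12053 pairs above 200 and up to 300 bp were narrower at early gastrula.

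In the whole lists, peaks without a counterpart stood farther from their neighbours. This did not hold at early blastula among the 20000 most enriched peaks, where the median distance was 12566 bp for unmatched and 12881 bp for matched peaks. In the whole lists the distance to the nearest other summit of the same list had a median of 4113 bp for peaks of early gastrula alone and 2113 bp for matched early gastrula peaks. It was 4022 bp for peaks of early blastula alone and 2264 bp for matched early blastula peaks. Another peak of the list lay within 1000 bp of 22.3% of peaks of early gastrula alone and of 36.0% of matched ones, and of 27.8% and 35.1% at early blastula. Enrichment moved with spacing in both classes, and its part in this result was not tested. Among peaks over 10 kb from the next summit, the median percentile was 54.2 for early gastrula alone and 78.7 for matched early gastrula peaks, and 52.0 and 76.9 at early blastula. Among peaks within 1000 bp of another summit it was 18.9 and 43.8 at early gastrula, and 18.6 and 44.6 at early blastula. The percentile gap between the classes was therefore between 20.4 and 26.1 points in each of the 3 spacing classes of both lists.

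The distance from each unmatched peak to the nearest peak of the other list was also measured. The edge-to-edge gap from a peak of early gastrula alone to the nearest early blastula peak had a median of 4823 bp, and that from a peak of early blastula alone to the nearest early gastrula peak a median of 3976 bp. The gap was at most 1000 bp for 22.6% of peaks of early gastrula alone and 29.4% of peaks of early blastula alone. A peak of their own list lay within 1000 bp of 22.3% and 27.8% of these peaks, measured between summits and not edges. The other list was thus about as near as their own. The gap exceeded 50 kb for 867 peaks of early gastrula alone (5.96%) and 394 of early blastula alone (3.06%). The unmatched peaks closest to the overlap rule ranked low. Within 10 bp of it lay 10 peaks of early gastrula alone and 17 of early blastula alone, with median percentiles of 9.76 and 8.84. On the matched side 26 overlaps measured 10 bp or less, with median percentiles of 39.3 for the early gastrula and 37.4 for the early blastula peak.

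The next question was how the regions found at both stages differed in rank, width and summit. In the one-to-one pairs the order of regions by enrichment was largely kept. The percentile at early gastrula followed that at early blastula with a Spearman rho of 0.83 across the 31384 pairs. These pairs share the library preparation and the peak calling of each stage and are not replicates. The difference in percentile, early gastrula minus early blastula, had a median of 0.26 points, which the use of ranks holds near 0. Its size had a median of 8.96 points, and 53.8% of pairs lay within 10 points. The deposited enrichment itself was higher at early gastrula in 80.1% of pairs, as were the values of that list as a whole, so it was not read as a change.

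A difference of over 25 points was used to set apart pairs whose percentiles differed most between the lists. Without values per library, such a difference cannot be told apart from the spread between libraries. At early gastrula 2293 pairs stood over 25 points higher (7.31%) and 2158 stood over 25 points lower (6.88%). With the lists cut to equal length, 2019 stood higher and 2724 lower, so the excess turned round. The pairs that stood higher had a median percentile of 69.8 at early gastrula and 32.6 at early blastula, and those that stood lower 33.5 and 69.8. These medians come from the same values that picked the pairs and only describe them. Width tended to differ in the same direction. Pairs over 25 points higher were 319 bp wide at early gastrula and 280 bp at early blastula, and 69.5% of them were wider at early gastrula. Pairs over 25 points lower were 267 and 304 bp wide, and 70.8% of them were narrower at early gastrula. Over all pairs the differences in percentile and in width had a Spearman rho of 0.20, so these differences were only loosely tied. Of the 4841 early gastrula peaks above percentile 90, 2811 (58.1%) were in a one-to-one pair with an early blastula peak above percentile 90. The same 2811 pairs were 60.7% of the 4628 early blastula peaks above that percentile. A partner below percentile 50 was rare there, with 40 such early gastrula and 53 such early blastula peaks.

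**Figure D3:**
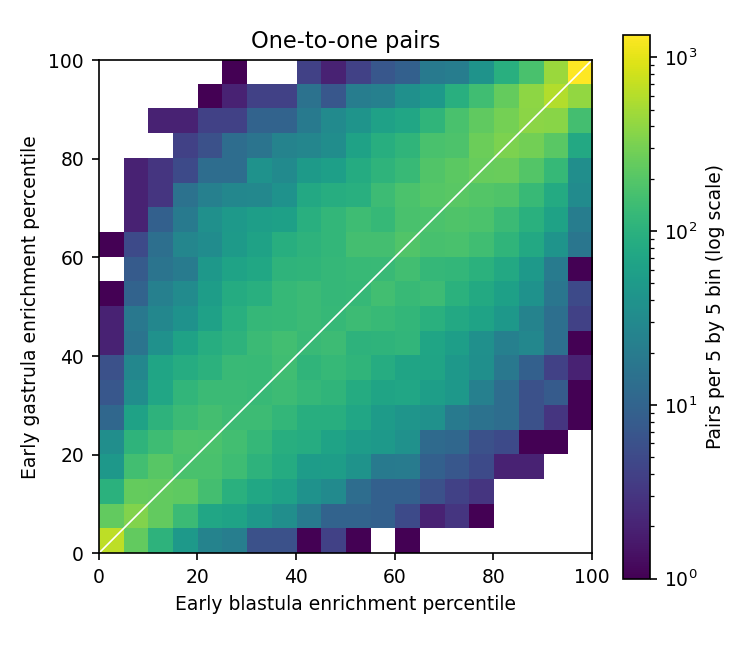
Enrichment percentile at early gastrula (vertical) against early blastula (horizontal) for the 31384 one-to-one pairs, counted in bins of 5 by 5 points with colour on a log scale; the white line marks equal percentiles. The pairs lie along the line and are most numerous at its ends, and the corners away from it, where the percentiles differ by over 50 points, hold 167 pairs higher and 129 lower at early gastrula.

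Regions kept their outline closely between the stages, with a slight excess of narrower peaks at early gastrula. The width difference, early gastrula minus early blastula, had a median of -3 bp, and 25% of pairs lay below -38 bp and 25% above 26 bp. At early gastrula 14415 pairs (45.9%) were wider and 16591 (52.9%) narrower. Among large differences the excess was greater, with 2273 pairs over 100 bp wider (7.24%) and 3538 over 100 bp narrower (11.3%). The shared part made up a median of 87.3% of the joint length of the peaks of a pair. Summits moved little. They were 9 bp apart in the median pair, 54.3% of pairs had summits within 10 bp, and 1251 pairs (3.99%) had summits over 100 bp apart. The summit lay at a higher coordinate at early gastrula in 13962 pairs and at a lower one in 14590. The median distance between summits was 5 bp for pairs with a mean width of up to 200 bp and 12 bp for those above 500 and up to 1000 bp. A summit lies within its peak, so narrow pairs leave less room for a distance, and this order is in part built in.

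**Figure D4:**
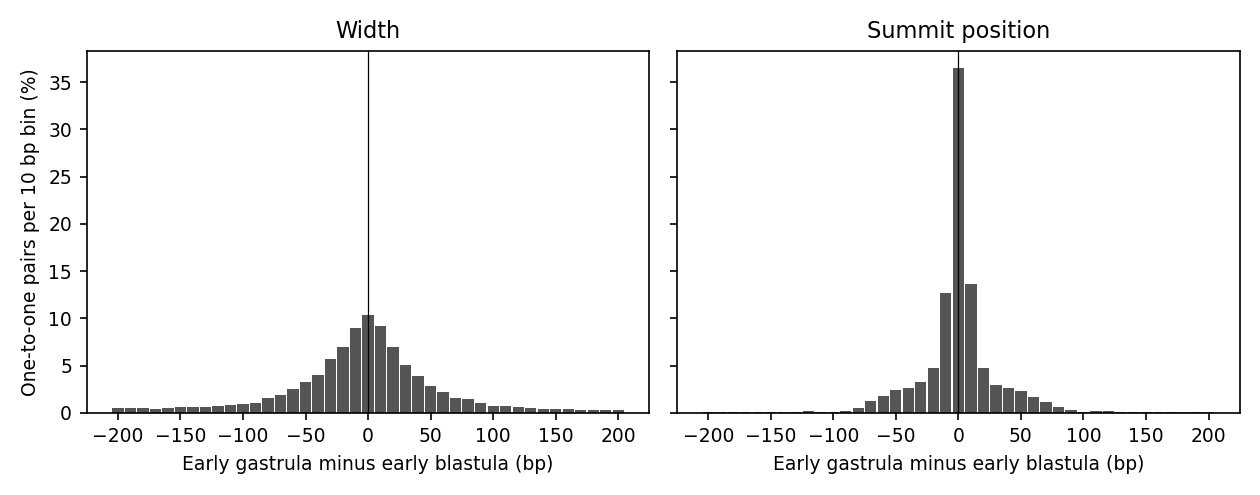
Difference in width (left) and in summit position (right), early gastrula minus early blastula, in percent of the 31384 one-to-one pairs per bin of 10 bp; differences beyond the axes are not drawn. Width differences spread widely around a median of -3 bp, and summit differences are concentrated near 0, with 54.3% of pairs within 10 bp.

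The sites named next were picked by their values, which are given as descriptions. Their positions are 1-based on the scaffolds of the lists. The lists name no genome build, so no gene, exon or intron was assigned to them and no sequence was read. Most peaks of either stage alone were below the maximum reproducibility score of 1000. It was reached by 1745 of the 14542 peaks of early gastrula alone, against 17485 of the 33874 matched early gastrula peaks. At early blastula it was reached by 769 of the 12893 peaks of that stage alone, against 16528 of the 33382 matched peaks. The named sites are thus not typical of their class in this score. The 5 most enriched peaks of early gastrula alone all had the maximum score. The first, on scaffold 5 at 5527175 to 5527503, had an enrichment of 23.4 and a -log10 p of 78.2, at percentile 99.9. It was isolated, with no other early gastrula peak and no early blastula peak within 50 kb. The second lay on scaffold 2 at 4287464 to 4287844 (enrichment 22.9) and the third on scaffold 1 at 50857488 to 50857798 (22.7). The fourth was on scaffold 7 at 40565470 to 40565718 (21.0). The fifth, on scaffold 11 at 38172010 to 38172569 (21.0), had 4 early gastrula peaks, itself included, and no early blastula peak within 50 kb, and the nearest early blastula peak was 155486 bp away. The nearest early blastula peak to the other sites was between 10181 and 97948 bp away, so none of the 5 was a near miss of the overlap rule.

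The 5 most enriched peaks of early blastula alone were led by scaffold 3 at 33348199 to 33348551, with an enrichment of 20.5 and a -log10 p of 93.7. It stood among 6 early gastrula peaks and 10 early blastula peaks, itself included, within 50 kb. The next were on scaffold 9 at 7767488 to 7767844 (enrichment 19.9) and on scaffold 5 at 37348402 to 37348692 (18.3); this last site lay 4123 bp from an early gastrula peak. A site on scaffold 9 at 38813149 to 38813697 (18.1) had a reproducibility score of 739, the only one of these 10 sites below the maximum. The fifth, on scaffold 4 at 10838802 to 10839107 (18.0), was the most isolated of the 10, with its nearest early gastrula peak 211198 bp away. These sites ranked between percentiles 99.6 and 99.9 of their lists.

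Next came the pairs with the largest percentile differences. The region that stood highest above its early blastula place lay on scaffold 20, at 36587574 to 36587915 at early gastrula and at 36587614 to 36588056 at early blastula. Its enrichment was 12.6 (percentile 87.2) at early gastrula and 4.72 (percentile 12.1) at early blastula, a difference of 75.02 points, with the summits 32 bp apart. It was followed by scaffold 16 at 7191377 to 7191850, with 88.9 at early gastrula and 15.5 at early blastula, and by scaffold 12 at 37704785 to 37705156, with 87.1 and 14.5. On scaffold 23 at 2033813 to 2034197 the percentiles were 78.3 at early gastrula and 7.77 at early blastula, and on scaffold 5 at 32776376 to 32776784 they were 94.1 and 23.9. The early gastrula peak was the wider in 4 of these 5 pairs, the exception being that on scaffold 20.

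In the other direction the largest difference was on scaffold 164, at 27886 to 28622 at early gastrula and 27843 to 28660 at early blastula. The enrichment there was 5.86 (percentile 18.0) at early gastrula and 10.9 (percentile 89.6) at early blastula, and the summits were 5 bp apart. Next were scaffold 17 at 34971402 to 34971632, with percentiles of 21.7 at early gastrula and 92.2 at early blastula, and scaffold 16 at 26547185 to 26547431, with 17.4 and 87.1. They were followed by scaffold 6 at 38908447 to 38908790, with 26.9 and 95.2, and scaffold 8 at 8255617 to 8255951, with 5.89 and 73.5. In these 10 pairs the summits were between 1 and 39 bp apart, except on scaffold 23, where the distance was 191 bp.

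The 3 pairs with the largest widening at early gastrula were on scaffold 10 at 30342555 to 30343862, 1308 bp at early gastrula and 360 bp at early blastula, on scaffold 14 at 34396631 to 34397729, 1099 and 307 bp, and on scaffold 21 at 9422851 to 9423989, 1139 and 365 bp. The largest narrowing was on scaffold 61, with 582 bp at early gastrula (523577 to 524158) and 2494 bp at early blastula (521654 to 524147), the widest peak of either list. Scaffold 11 at 40545291 to 40545616 had 326 bp at early gastrula and 1240 bp at early blastula, and scaffold 8 at 15165502 to 15165826 had 325 and 1233 bp. The percentile on scaffold 8 was nonetheless higher at early gastrula, 96.1 against 86.4 at early blastula. The pairs that ranked highest in both lists were on scaffold 2 at 2129389 to 2129776 (enrichment 29.0 at early gastrula and 25.5 at early blastula), scaffold 57 at 745254 to 745608 (29.2 and 25.3) and scaffold 35 at 125878 to 126181 (29.6 and 23.8). Their summits differed by 3, 13 and 7 bp.

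Peaks without a counterpart were spread over all the large scaffolds, with moderate local differences. On the 27 scaffolds of at least 10 Mb, between 27.3% and 35.4% of the early gastrula peaks and between 22.6% and 35.5% of the early blastula peaks had no counterpart. Peaks of early gastrula alone outnumbered those of early blastula alone on 22 of these scaffolds, in lists of unequal length. Over the whole lists the ratio of these counts was 1.13, and it was 0.975 with the lists cut to equal length. By scaffold, in the uncut lists, the ratio was lowest on scaffold 24, with 135 of early gastrula alone and 189 of early blastula alone (0.714). It was highest on scaffold 25, with 116 and 79 (1.47). In windows of 1 Mb both kinds were more numerous where matched peaks were more numerous. Over 1085 windows, which share the lists and their regional peak density, the Spearman rho with matched peaks was 0.79 for early gastrula alone and 0.83 for early blastula alone. The windows furthest to the side of early gastrula were scaffold 8 at 28000001 to 29000000, with 41 peaks of early gastrula alone and 16 of early blastula alone, and scaffold 11 at 12000001 to 13000000, with 36 and 11. Furthest to the other side was scaffold 14 at 39000001 to 40000000, with 9 of early gastrula alone and 31 of early blastula alone, followed by scaffold 18 at 36000001 to 37000000, with 5 and 24.

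**Figure D5:**
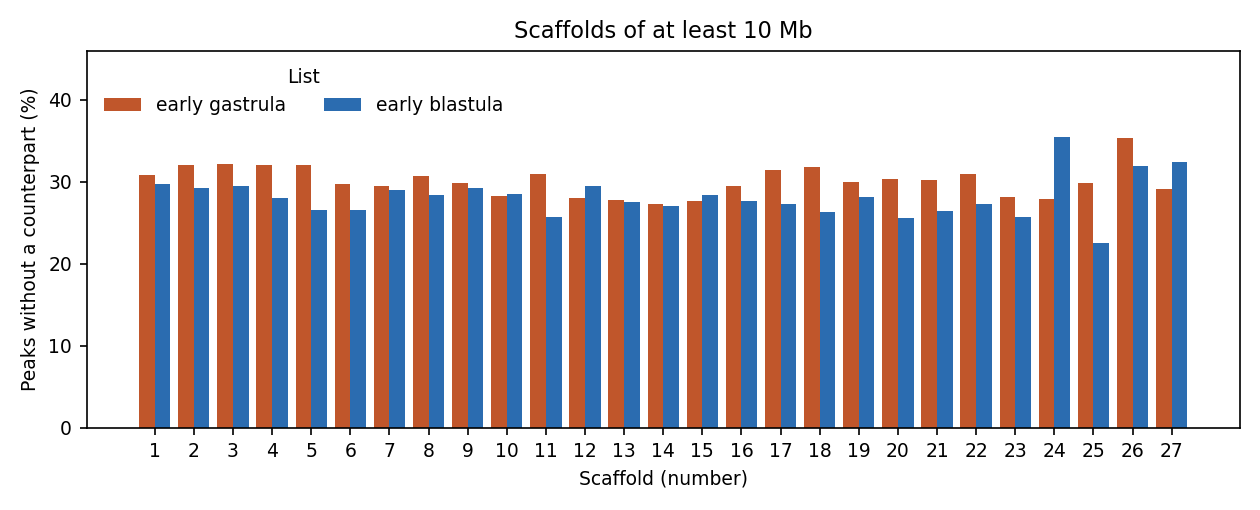
Percent of peaks without a counterpart on each of the 27 scaffolds of at least 10 Mb, with early gastrula bars left of early blastula bars. The bars lie between 22.6% and 35.5%, and the early gastrula bar stands well below the early blastula bar on scaffold 24, at 27.9% against 35.5%.

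Sites of one kind followed each other along the scaffolds slightly more often than they followed sites of another kind. Of all sites along the scaffolds, 23.7% were of early gastrula alone and 21.0% of early blastula alone, and a more frequent kind forms more runs. After a site of early gastrula alone, the next site was again of early gastrula alone in 29.3% of cases, and after a matched site in 22.1%. After a site of early blastula alone, the next was again of that kind in 23.8% of cases, and after a matched site in 20.7%. Unbroken runs of 3 or more sites held 3134 peaks of early gastrula alone (21.6%) and 1928 of early blastula alone (15.0%). The longest runs had 10 sites of early gastrula alone and 7 sites of early blastula alone. For early gastrula alone, one was on scaffold 9 at 43965266 to 44040385, a stretch of 75.1 kb, and another on scaffold 33 spanned 577.1 kb. For early blastula alone, one was on scaffold 9 at 27976811 to 28007747, a stretch of 30.9 kb. Others of that length spanned 126.8, 152.0 and 525.6 kb, so these runs were not all compact. Differences in percentile between adjacent one-to-one pairs were hardly related, with a Spearman rho of 0.10 over 3774 adjacent pairs at most 500 bp apart and 0.02 over 11341 that lay more than 20 kb apart.

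The matching, the class medians of width, percentile and spacing, and the pair differences were repeated with the lists cut to equal length by enrichment, because a longer list leaves more peaks without a counterpart. Cutting the early gastrula list to 46275 peaks removed 2141 peaks with an enrichment of at most 4.27, of which 46.8% had no counterpart. The balance then turned round, with 13539 early gastrula and 13891 early blastula peaks without a counterpart, a ratio of 0.975 in place of 1.13. Of those early blastula peaks, 998 (7.18%) did overlap an early gastrula peak that the cut had removed. The one-to-one pairs numbered 30539, with a median width difference of -3 bp and summits 9 bp apart in the median, the same as in the whole lists. The excess among differences of over 25 points also turned round, as given above, since the cut lowers the percentile of every remaining early gastrula peak. The 10 named pairs of largest percentile difference then had differences of 69.5 to 74.4 points in one direction and of -75.4 to -71.6 in the other. These pairs were picked for their large differences in the whole lists. The cut moves percentiles by too little to turn such differences round, so their direction could not have changed.

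Between cut lists of shorter equal length, a larger share of peaks had no counterpart. It was 31.9% of early gastrula and 32.3% of early blastula peaks at 20000 peaks each, 34.7% and 34.8% at 10000, and 37.8% in both at 5000. These shares rest in large part on rank. Among the top 5000, 78.4% of the unmatched early gastrula peaks and 81.9% of the unmatched early blastula peaks overlapped a lower-ranked peak of the other list. Against the whole other list, 409 of the top 5000 early gastrula peaks (8.18%) and 342 of the top 5000 early blastula peaks (6.84%) had no counterpart, a ratio of 1.20. That ratio was 1.15 at 10000, 1.09 at 20000, 1.06 at 30000, 1.07 at 40000 and 1.05 at 46275. As a ratio, though not in percentage points, the lead of early gastrula over early blastula was thus greatest in the shortest of these 6 lists, although the early gastrula list is also the longer one to match against. Spacing depended on the cut. At early gastrula the median distance to the nearest summit was 14830 bp for unmatched and 13386 bp for matched peaks at 20000 peaks each. At early blastula the order was the reverse of that in the whole list at 20000 peaks and also at 10000, where it was 26077 bp for unmatched and 27193 bp for matched peaks. At 5000 peaks it was again that of the whole list, with 56548 bp for unmatched and 54198.5 bp for matched early blastula peaks.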

How the data were processed

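ATAC-seq was made by the authors from whole animals with Tn5 transposition and PCR, per the labels' protocols. Bowtie2, bedtools and MACS2 are named in the submitters' processing notes, with neither versions nor parameters. Not given in the sources are the build, shifts for Tn5 insertion, duplicate handling and whether peaks were called per library or on pooled reads. Each stage has 1 deposited list of 12 columns, whose order is that of the output of the irreproducible discovery rate (IDR) tool. The deposited fold enrichment ranked the peaks, and the deposited −log10 p broke ties. The deposited score has a maximum of 1000. The IDR was at most 0.100. The deposited starts, ends and summit offsets gave widths and summits. The enrichment, −log10 p and score of a peak are the authors' values.

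No list held overlapping peaks. Matching, percentiles, spacing and shifts were computed with Python 3.11.15, NumPy 2.4.6, pandas 2.3.3 and SciPy 1.17.1, and figures with Matplotlib 3.10.9. The matching steps were tested on simulated lists. Shares have Wilson 95% intervals and medians order-statistic intervals. The comparison, the thresholds of 25 points and 100 bp and the lists were chosen with earlier results of these data known. Named sites are the 5 most enriched peaks of each stage alone, the 5 pairs of largest percentile difference in each direction, the 3 of largest widening and of largest narrowing, and the 3 of highest lower percentile.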

Additional observations from a re-analysis of the deposited data

How the results depend on the processing

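No paired analysis was possible because the lists give no values per library, and for the same reason no replicate could be left out. Pair differences in percentile are given here as their median size, without sign. Apart from the restriction chosen after seeing the data, 83 values were recomputed under other settings. Of these, 39 stayed within the counting interval or, for counts, within 1.5 times the count, and 43 moved. That limit for counts is wide, and counts without a counterpart rose under stricter matching. From 14542 at early gastrula and 12893 at early blastula they rose to 17408 and 15267 with an overlap of 50% of both peaks. They were 16842 and 14700 with summits within 100 bp, and 16181 and 14043 with windows of 200 bp. The spacing ratio in early blastula, unmatched over matched, turned round to 0.976 among the 20000 most enriched peaks, where it was 1.11 in early gastrula. In the same order of stages (early gastrula, then early blastula), these peaks had counts without a counterpart of 6377 and 6462, percentile gaps of -31.3 and -31.8, width gaps of -28 and -61 bp, and in pairs a percentile difference of 13.4 points in size and summits 8 bp apart. An IDR of at most 0.01 left shorter lists, and the counts were 7471 of 25100 early gastrula and 5335 of 22783 early blastula peaks. At that IDR the percentile gaps were -12.1 and -9.68, the width gaps -21 and -76 bp and the spacing ratios 1.24 and 1.20. Pairs there differed by -5 bp in width and by 7.93 points in size, with summits 8 bp apart. Cutting to the shorter list by enrichment gave a percentile gap of -25.7 and a spacing ratio of 1.38 in early blastula and a pair difference of 9.60 points in size, and cutting by −log10 p a percentile gap of -19.1 in early gastrula. An overlap of 50% of both peaks gave spacing ratios of 1.37 and 1.44 and a width gap of -52 bp in early blastula. Summits within 100 bp gave percentile gaps of -22.7 and -22.8, width gaps of -26 and -51 bp and spacing ratios of 1.45 and 1.48. Windows of 200 bp gave percentile gaps of -22.6 and -22.6 and spacing ratios of 1.496 and 1.52. Percentiles of −log10 p gave gaps of -34.0 and -38.5 and a pair difference of 10.4 points in size. Pairing by largest overlap gave a width difference of -6 bp and a percentile difference of 9.23 points in size, and edge-to-edge gaps a spacing ratio of 2.15 in early gastrula. Restriction to peaks over 10 kb from the next summit, chosen after seeing the data, gave percentile gaps of -24.5 and -24.9 and a width gap of -62 bp in early blastula. Restriction to scaffolds of at least 10 Mb moved none. The cause of these movements was not tested. Depth is unknown, so a region listed at 1 stage may be accessible at the other below its threshold.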

Other observations

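Among peaks without a counterpart, enrichment percentile and −log10 p were set beside the distance to the other list. Peaks of early gastrula alone at most 100 bp from an early blastula peak had a median enrichment percentile of 18.3 and those over 50 kb away one of 59.0, while their median −log10 p was 18.4 and 20.4. Peaks of early blastula alone at most 100 bp from an early gastrula peak had a median percentile of 14.9 and those over 50 kb away one of 59.1, with a median −log10 p of 17.0 and 18.9.

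The peaks below percentile 1 of each list included some of maximum reproducibility score. The maximum score of 1000 was reached by 82 of these 484 early gastrula peaks (16.9%) and by 112 of these 463 early blastula peaks (24.2%). These shares were below those of the whole lists, 39.7% at early gastrula and 37.4% at early blastula. Between percentiles 1 and 10 the shares were 15.1% and 10.6%. The peaks below percentile 1 were narrow, with median widths of 187 and 172 bp, and crowded, with another summit of the same list within 1000 bp of 72.7% of the early gastrula and 81.4% of the early blastula peaks. A counterpart was found for 46.9% of them at early gastrula and 43.0% at early blastula. This group was chosen after its values were seen.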
